A study of Mus musculus with 8 samples.

Results

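Collagen chain genes are the members of the gene family that encodes the alpha chains of collagens, taken here as every gene of the deposited count table whose symbol reads Col, a type number, a and a chain number. The table holds 43 such genes among 16109, and all 43 passed the filter on low counts. They comprise 11 fibrillar chains, 8 chains of basement membrane collagens (types 4, 15 and 18), 2 short-chain collagens (type 8) and 22 chains of other classes. The study sequenced poly(A) RNA of mouse retinas at postnatal day 5, from C57BL/6 animals, in 4 libraries labelled C3 KO and 4 labelled WT. C3 is the central protein of complement, and the labels give the KO genotype without naming the allele, nor how many animals a library holds, so p-values measure the spread between these libraries, which may be technical. The hyaloid vessels were removed at dissection per the labels' protocols.

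Most collagens are secreted as trimers of alpha chains wound into a rod, and a chain generally needs partner chains to leave the cell. Fibrillar chains form the fibrils of stroma and, in the eye, the vitreous gel, type 4 chains form the sheet of basement membranes under vessels, glia and pigment epithelium, and type 8 chains form an open lattice, best known from the inner layer of the cornea and from vessel walls. In the retina the inner limiting membrane and the vessels are the main basement membranes inside the tissue, while the sclera and the basement membrane of the pigment epithelium lie outside it.

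C3 itself was higher under the C3 KO label, with 1718, 1585, 1550 and 1419 reads in replicates 1 to 4 of the C3 KO label, against 52, 45, 33 and 55 in WT replicates 1 to 4. This is the reverse of what the label names, so higher and lower refer to the C3 KO label as deposited, set against the WT label, and not to a genotype the reads bear out. Libraries held 16503564 to 19608824 reads. An edgeR adjusted p below 0.05 is a call, and of all 15850 genes tested 14.3% were called, 8.33% higher and 5.98% lower under the C3 KO label. The labels also differed in sex-linked RNA. The summed level of 4 Y-linked genes was 299 to 353 CPM (read counts relative to library size, scaled between libraries by TMM) under the C3 KO label, against 1.79, 20.2, 303 and 14.8 CPM in WT replicates 1 to 4. Xist, the RNA that coats the inactive X chromosome, stood at 1.48 to 2.65 CPM under the C3 KO label, against 2441, 2369, 295 and 2195 CPM in WT replicates 1 to 4. WT replicate 3 thus had Y-linked RNA at the C3 KO level and Xist far above it. Of 10 retinal markers 9 had a row, of which 2 were called higher and 2 lower, while the fibroblast genes Dcn and Lum had no row in the table used here. Among markers of other tissue, the summed level of 16 genes of pigment epithelium and melanocytes was 320 to 345 CPM under the C3 KO label and 134 to 193 CPM under the WT label, and 11 of the 16 were called higher. The summed level of 9 fibroblast and sclera genes was 213 to 253 CPM under the C3 KO label and 171 to 209 CPM under the WT label, most of it from Pdgfra, which retinal astrocytes also make. Without Pdgfra, 1 of the other 8 was called higher and 1 lower. The summed level of 9 ciliary body and iris genes was 158 to 171 CPM under the C3 KO label and 152 to 157 CPM under the WT label. Of these, 3 were called higher and 1 lower. Of 5 red blood cell genes all 5 were called lower, of 8 Mueller glia genes 3 were lower, of 7 microglia genes 2 were higher, and of 6 astrocyte genes, Pdgfra among them, 2 were higher. The part of these cells and tissues in the collagen results was not tested, and in whole retinas more cells of a type and more RNA per cell cannot be told apart.

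Start regions of 4 chains are shown because type 4 and type 8 chains carry the contrast described next. Each run covers 250 bases before to 50 bases after a RefSeq transcript start, on build GRCm38.p6, with GC boxes (GGGCGG) and CCAAT boxes (CCAAT) on either strand in capitals. The GC boxes of Col8a2 include a pair that overlap each other, and no GC box overlaps a CCAAT box. Col4a4 lies at chr1:82586800-82587099 on the minus strand, Col4a2 at chr8:11312555-11312854 on the plus strand, Col8a1 at chr16:57754688-57754987 on the minus strand and Col8a2 at chr4:126286544-126286843 on the plus strand.
Col4a4: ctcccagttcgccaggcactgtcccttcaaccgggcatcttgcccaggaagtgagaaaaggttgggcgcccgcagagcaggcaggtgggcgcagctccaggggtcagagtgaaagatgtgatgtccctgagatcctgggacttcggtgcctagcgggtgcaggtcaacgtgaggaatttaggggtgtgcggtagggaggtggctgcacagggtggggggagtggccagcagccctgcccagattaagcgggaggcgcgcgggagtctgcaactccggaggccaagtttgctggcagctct
Col4a2: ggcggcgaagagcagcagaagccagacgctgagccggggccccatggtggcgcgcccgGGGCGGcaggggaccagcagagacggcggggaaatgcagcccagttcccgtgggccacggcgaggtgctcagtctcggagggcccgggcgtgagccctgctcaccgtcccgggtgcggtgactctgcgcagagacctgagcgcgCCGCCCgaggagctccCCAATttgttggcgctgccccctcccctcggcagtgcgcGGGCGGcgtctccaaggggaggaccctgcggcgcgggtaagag
Col8a1: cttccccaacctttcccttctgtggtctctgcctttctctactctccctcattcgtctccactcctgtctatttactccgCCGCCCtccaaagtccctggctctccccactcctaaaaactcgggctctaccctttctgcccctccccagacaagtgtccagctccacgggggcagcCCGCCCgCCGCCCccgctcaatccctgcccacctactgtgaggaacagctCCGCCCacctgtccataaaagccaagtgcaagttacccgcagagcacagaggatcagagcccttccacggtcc
Col8a2: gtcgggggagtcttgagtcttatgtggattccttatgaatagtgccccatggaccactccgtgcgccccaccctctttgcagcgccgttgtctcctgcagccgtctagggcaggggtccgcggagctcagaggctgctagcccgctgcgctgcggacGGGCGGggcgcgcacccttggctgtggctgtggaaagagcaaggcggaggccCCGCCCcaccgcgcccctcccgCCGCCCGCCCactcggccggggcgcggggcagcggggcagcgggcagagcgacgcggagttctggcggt
The Col4a4 run contains the annotated start of its neighbour Col4a3, which is read from the opposite strand. The Col4a2 run shares 78 bases with the corresponding region of Col4a1, so this second pair of type 4 genes is also arranged head to head. The Col4a4 run held no GC box and no CCAAT box, whereas the Col4a2 run held 3 GC boxes and 1 CCAAT box. The Col8a1 and Col8a2 runs held 4 GC boxes each and no CCAAT box. Of 32851 mouse start regions of this length, 35.7% held a GC box and 37.4% a CCAAT box. Start regions of 35 collagen genes were found in the table, and 22 of these genes held a GC box and 12 a CCAAT box in the first region listed. Shares of regions and counts of genes are not in like units. Among the 35 were 12 genes called higher under the C3 KO label, of which 9 held a GC box and 4 a CCAAT box. A TATA box (TATAAA, either strand) was in 5 of the 35 and in 13.6% of all regions, and none of the 4 runs shown held one.

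Across the family, 14 collagen genes were called higher and 3 lower under the C3 KO label at an edgeR adjusted p below 0.05, and 26 did not pass. That is 39.5% of the collagen genes, 32.6% higher and 6.98% lower, beside 14.3%, 8.33% and 5.98% of all genes tested. The median log2 fold change was 0.27 over the collagen genes and 0.00 over all genes. For 19 collagen genes the 4 libraries of one label did not overlap those of the other, and 17.4% of all genes tested had that property. A Y-adjusted fit, which adds the mean log2 level of the 4 Y-linked genes as a covariate, called 7 collagen genes higher and 1 lower, and 534 genes in all. These are 18.6% of the collagen genes and 3.37% of all genes tested. Standard errors rose in that fit, so its lost calls are given with their log2 fold changes. Without WT replicate 3, the WT library with Y-linked RNA at the C3 KO level, 12 were higher and 2 lower. That is 32.6% of the collagen genes, beside 10.7% of all genes tested in that fit. The remaining WT libraries all had less Y-linked RNA and more Xist than any C3 KO library. Leaving out WT replicate 3 therefore cannot separate the label from sex-linked RNA. The Y-adjusted fit cannot cleanly do so either. Y-linked RNA varied little under the C3 KO label, and WT replicate 3 alone reached that level, so that fit leans on this library. A call kept or lost in it does not settle the question.

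**Figure D1:**
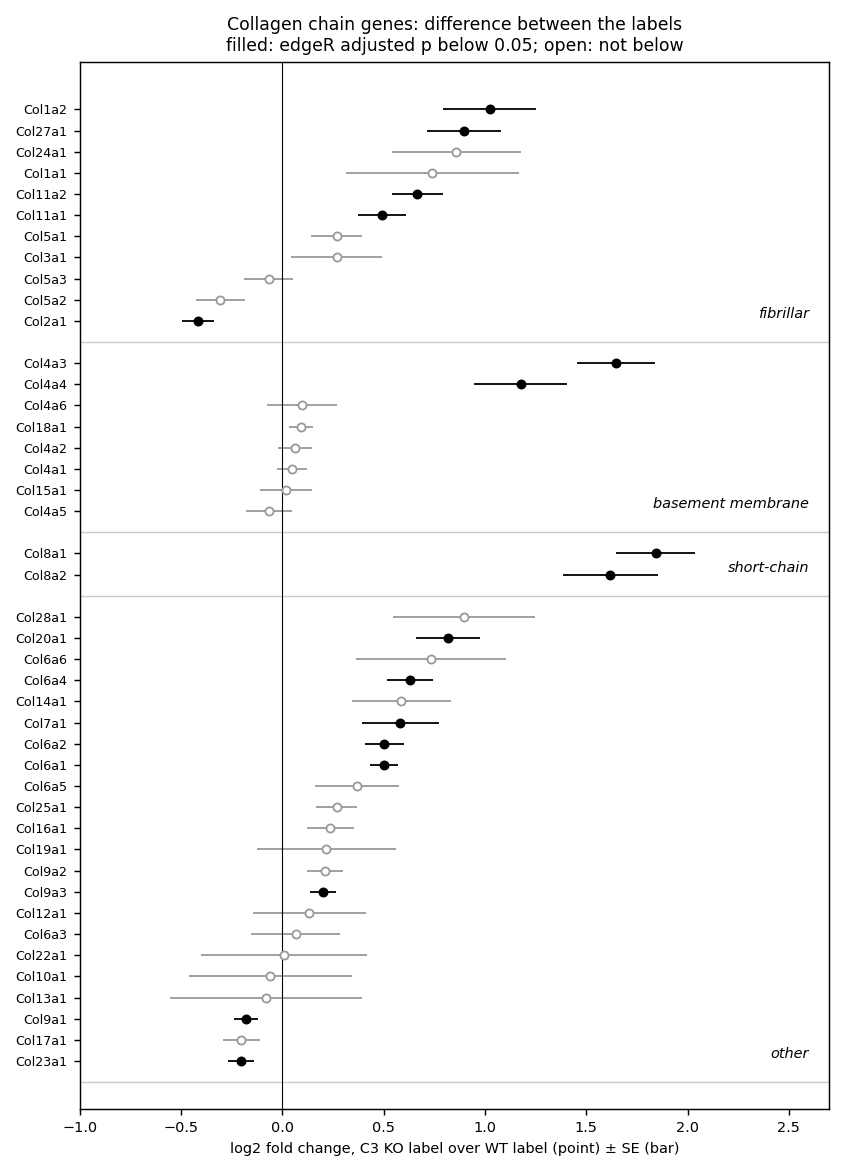
The log2 fold change of each of the 43 collagen genes, C3 KO label over WT label, grouped by class, with its standard error as a bar. Filled points have an edgeR adjusted p below 0.05. The 2 short-chain genes and Col4a3 lie farthest to the right, Col4a1 and Col4a2 near 0, and Col2a1 farthest to the left.

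By level per kilobase, the family was led by Col2a1, Col4a1, Col4a2 and Col6a1. On the deposited RPKM scale, turned back from log2, Col2a1 averaged 23.3 under the C3 KO label and 31.4 under the WT label. Col4a1 averaged 23.1 and Col4a2 16.4 RPKM under the C3 KO label, against 22.5 and 15.8 RPKM under the WT label. Col1a1, Col1a2 and Col3a1, the main chains of stromal connective tissue, averaged 0.320, 0.483 and 0.349 RPKM under the C3 KO label, against 0.201, 0.242 and 0.295 RPKM under the WT label. They ranked 35, 30 and 32 of the 43 genes by mean RPKM. The fibrillar class held 18.1% of the summed collagen RPKM under the C3 KO label and 23.5% under the WT label. The short-chain pair held 8.47% under the C3 KO label and 2.67% under the WT label. Basement membrane chains held 30.2% and other classes 43.3% under the C3 KO label, against 31.2% and 42.7% under the WT label.

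**Figure D2:**
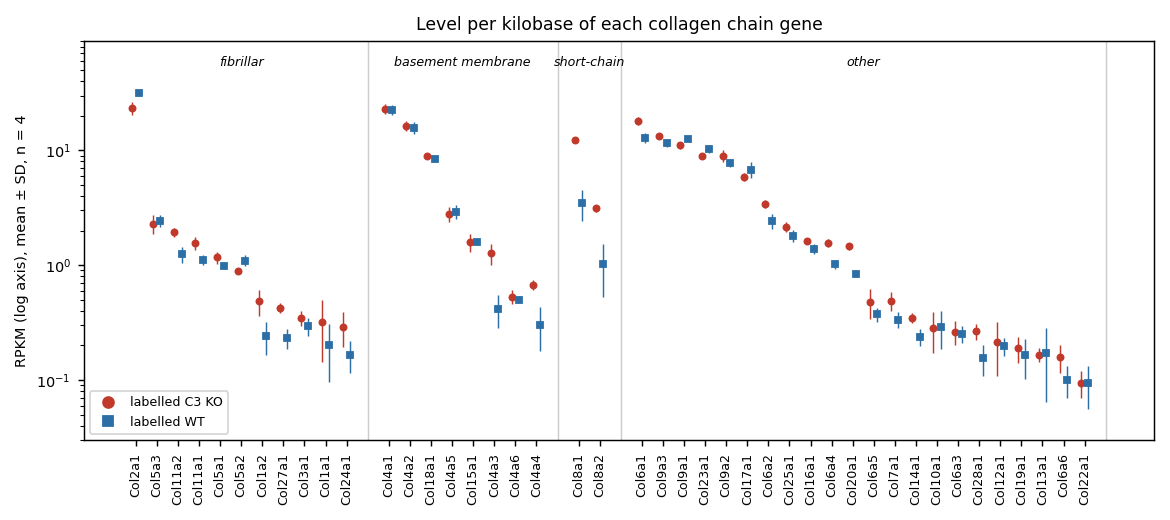
RPKM of each collagen gene on a log axis, mean with SD over 4 libraries, with libraries labelled C3 KO as circles and those labelled WT as squares. Genes run from high to low within a class. Col8a1 stands at 12.4 RPKM under the C3 KO label and 3.46 RPKM under the WT label.

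The short-chain collagens were both higher, with the largest and the third largest log2 fold change of the family. Col8a1, the chain that can form the type 8 lattice alone or with Col8a2, stood at 60.0, 67.9, 61.6 and 63.6 CPM in replicates 1 to 4 of the C3 KO label, against 23.7, 18.0, 17.7 and 10.7 CPM in WT replicates 1 to 4. The groups were far apart, and the WT libraries varied more among themselves than the C3 KO libraries did. The log2 fold change was 1.84 ± 0.19 (SE), a 3.58-fold difference (edgeR adjusted p = 0.000949). Col8a2, the second type 8 chain, in which human mutations cause a corneal endothelial dystrophy, stood at 12.7, 15.1, 13.8 and 14.3 CPM under the C3 KO label, against 7.79, 2.97, 4.04 and 3.14 CPM under the WT label. The groups did not overlap. The log2 fold change of Col8a2 was 1.62 ± 0.24 (SE), a 3.07-fold difference (edgeR adjusted p = 0.00082). Both calls held in all 8 leave-one-out fits, each of which drops a library. They also held in the Y-adjusted fit, at larger log2 fold changes of 2.05 ± 0.28 for Col8a1 and 2.20 ± 0.29 for Col8a2 (SE).

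Pigment epithelium and melanocyte markers were also higher under the C3 KO label. Their summed level was 327, 333, 320 and 345 CPM in C3 KO replicates 1 to 4, and 193, 153, 157 and 134 CPM in WT replicates 1 to 4. Within the WT label, replicate 1 was highest for the markers, Col8a1 and Col8a2, while replicate 4 was lowest for the markers and Col8a1 and replicate 2 for Col8a2. Within the C3 KO label the orders differed, the markers being highest in replicate 4 and both type 8 chains in replicate 2. Ttr, a thyroxine and retinol carrier abundant in pigment epithelium, was 2.75-fold higher (edgeR adjusted p = 2.85e-08), and Tyr, the first enzyme of melanin synthesis, 2.80-fold higher (edgeR adjusted p = 9.55e-08). Other lists showed a like pattern. The fibroblast and sclera sum was 209, 177, 190 and 171 CPM in WT replicates 1 to 4, and the astrocyte sum 264, 224, 229 and 205 CPM. Both sums include Pdgfra, and neither overlapped the C3 KO libraries, which were higher. The microglia sum was also separate and higher, with WT replicate 1 the highest of its label. The endothelial sum overlapped between the labels, and the red blood cell sum was lower. Whether the type 8 reads came with any of these tissues was not tested.

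**Figure D3:**
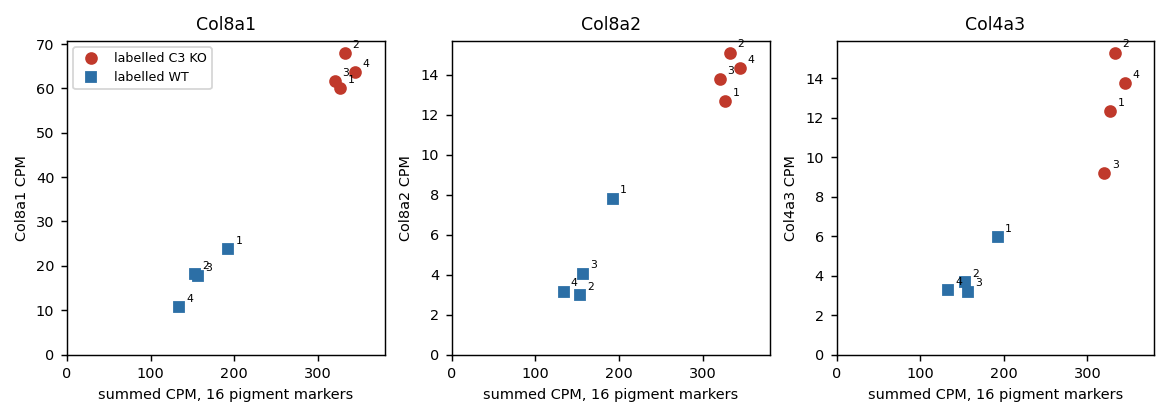
CPM of Col8a1, Col8a2 and Col4a3 in each library against the summed CPM of 16 pigment epithelium and melanocyte markers in the same library, numbered by replicate. The libraries labelled C3 KO (circles) lie at 320 to 345 marker CPM and those labelled WT (squares) at 134 to 193, and WT replicate 1 is highest of its group in all 3 panels.

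Among basement membrane collagens, the minor type 4 chains Col4a3 and Col4a4 were higher and the other 6 genes did not pass. Col4a3, which with Col4a4 and Col4a5 makes the type 4 network of the kidney filter, stood at 12.3, 15.3, 9.20 and 13.8 CPM under the C3 KO label, against 5.95, 3.67, 3.19 and 3.26 CPM under the WT label. Every C3 KO library was above every WT library, and the log2 fold change was 1.65 ± 0.19 (SE), or 3.13-fold (edgeR adjusted p = 2.45e-05). Col4a4, its head-to-head neighbour on chromosome 1, stood at 4.74, 5.62, 5.87 and 5.91 CPM under the C3 KO label, against 3.28, 1.80, 3.30 and 1.27 CPM under the WT label. The WT values rest on few reads, 64, 31, 62 and 21 in replicates 1 to 4, and none reached the C3 KO libraries. Its log2 fold change was 1.18 ± 0.23 (SE), or 2.26-fold (edgeR adjusted p = 0.0016). The call of Col4a4 was lost in the Y-adjusted fit (edgeR adjusted p = 0.083), at a log2 fold change of 1.11 ± 0.35 (SE). Col4a3 kept its call there, at a larger log2 fold change of 2.17 ± 0.27 (SE).

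Col4a5, the third chain of that network, stood at 15.3, 21.7, 19.7 and 17.7 CPM under the C3 KO label, against 20.9, 22.5, 17.5 and 16.8 CPM under the WT label. The groups overlapped throughout (log2 fold change −0.07 ± 0.11 (SE), edgeR adjusted p = 0.746). Col4a5 and its neighbour Col4a6, at a log2 fold change of 0.10, are X-linked, and sex-linked RNA differed between the labels.

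The ubiquitous type 4 chains Col4a1 and Col4a2, which form most basement membranes of young vessels, did not pass. Col4a1 stood at 140, 151, 179 and 161 CPM under the C3 KO label, against 157, 145, 172 and 139 CPM under the WT label. Col4a2 stood at 93.6, 114, 117 and 110 CPM under the C3 KO label, against 109, 90.4, 119 and 97.4 CPM under the WT label. Their log2 fold changes were 0.04 ± 0.07 and 0.06 ± 0.08 (SE), with edgeR adjusted p = 0.745 and 0.676. Within each label the chains kept their order in every library, Col4a1 above Col4a2. Col18a1, whose C-terminal fragment endostatin restrains vessel growth, stood at 65.7, 60.4, 64.8 and 59.7 CPM under the C3 KO label, against 61.8, 55.2, 61.0 and 57.5 CPM under the WT label (edgeR adjusted p = 0.341). Col15a1, its closest relative, had a log2 fold change of 0.02 ± 0.13 (SE). The summed endothelial markers, 12 genes, ran from 341 to 416 CPM under the C3 KO label and from 378 to 432 CPM under the WT label, and 1 of the 12 was called, higher.

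**Figure D4:**
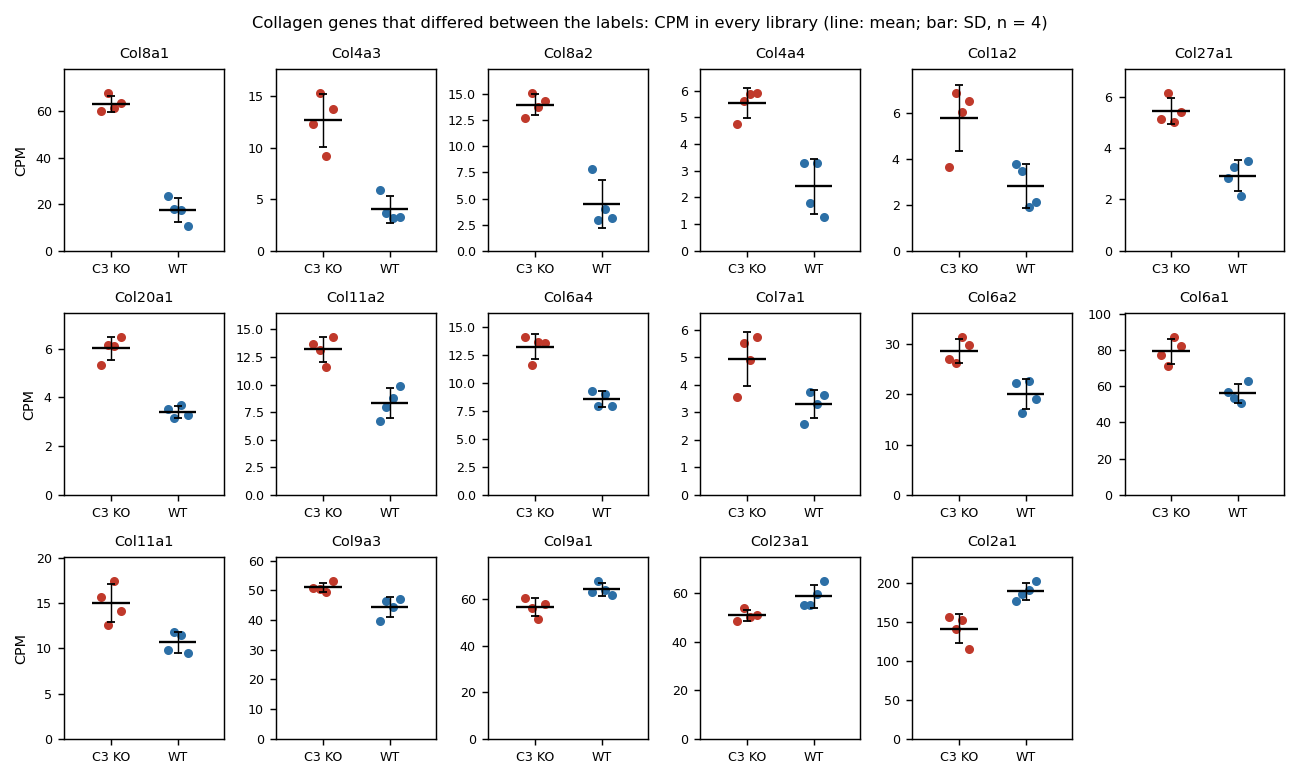
CPM in every library for the 17 collagen genes with an edgeR adjusted p below 0.05, libraries labelled C3 KO on the left of each panel and WT on the right, with the mean as a line and the SD as a bar (n = 4). Panels run from the highest log2 fold change, Col8a1, to the lowest, Col2a1, and the labels overlap only for Col1a2 and Col7a1.

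Fibrillar chains moved in both directions, with 4 called higher, 1 lower and 6 not passing. Col2a1, the main fibril chain of vitreous and cartilage and the most abundant collagen gene here, fell to 156, 141, 152 and 115 CPM under the C3 KO label, against 176, 186, 191 and 202 CPM under the WT label. The groups did not overlap, with C3 KO replicate 4 the lowest of all. The log2 fold change was −0.42 ± 0.08 (SE), so that the WT level was 1.34-fold higher (edgeR adjusted p = 0.00299), and the call held in all leave-one-out fits. The summed fibrillar level ran from 196 to 234 CPM under the C3 KO label and from 242 to 266 CPM under the WT label, and Col2a1 made up most of it.

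Col11a1 and Col11a2, the type 11 chains that form the core of type 2 fibrils, were higher. Col11a1 stood at 15.7, 12.5, 17.4 and 14.1 CPM under the C3 KO label, against 9.84, 11.8, 11.4 and 9.47 CPM under the WT label (log2 fold change 0.49 ± 0.12 (SE), edgeR adjusted p = 0.00702). Col11a2 stood at 13.7, 13.2, 11.6 and 14.3 CPM under the C3 KO label, against 6.66, 7.98, 8.82 and 9.90 CPM under the WT label (log2 fold change 0.67 ± 0.13 (SE), edgeR adjusted p = 0.00105). Neither pair of groups overlapped. Col11a2 lies on chromosome 17, as C3 does, 23.1 Mb away on GRCm38. In the Y-adjusted fit both lost the call (edgeR adjusted p = 0.275 for Col11a1 and 0.162 for Col11a2), with smaller log2 fold changes of 0.37 ± 0.18 and 0.49 ± 0.19 (SE), and Col11a1 also lost it by limma on log2(RPKM + 1) (adjusted p = 0.0612).

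Col27a1, a fibrillar chain of cartilage, stood at 5.14, 6.14, 5.02 and 5.40 CPM under the C3 KO label, against 2.82, 3.26, 2.13 and 3.50 CPM under the WT label. Its log2 fold change was 0.90 ± 0.18 (SE), 1.86-fold (edgeR adjusted p = 0.00198), with no overlap. Col1a2, a chain of the type 1 fibrils of sclera and bone, stood at 3.67, 6.87, 6.04 and 6.53 CPM under the C3 KO label, against 3.79, 3.49, 1.91 and 2.11 CPM under the WT label. C3 KO replicate 1 lay within the WT range. Its log2 fold change was 1.02 ± 0.23 (SE, edgeR adjusted p = 0.00533), and the call was lost by limma on log2(RPKM + 1) (adjusted p = 0.0587). Its partner Col1a1 stood at 1.73, 1.20, 3.72 and 1.36 CPM under the C3 KO label, against 1.13, 1.28, 0.372 and 2.05 CPM under the WT label, and did not pass (log2 fold change 0.74 ± 0.43 (SE), edgeR adjusted p = 0.272). Col5a3, the second most abundant fibrillar gene per kilobase, stood at 15.2, 19.5, 12.5 and 15.4 CPM under the C3 KO label, against 17.5, 18.6, 14.7 and 14.8 CPM under the WT label, and the groups overlapped (edgeR adjusted p = 0.76). The type 5 chains Col5a1 and Col5a2, which set fibril width, had log2 fold changes of 0.27 and −0.31 with edgeR adjusted p = 0.161 and 0.0946. Col3a1 and Col24a1 had log2 fold changes of 0.27 and 0.86 and did not pass.

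Of the 6 beaded filament chains of type 6, which link cells to the surrounding matrix, 3 were higher and none lower, and all 6 log2 fold changes were positive, although that of Col6a3 turned to −0.11 in the Y-adjusted fit. Col6a1 stood at 77.0, 71.2, 87.2 and 81.9 CPM under the C3 KO label, against 57.0, 53.2, 50.9 and 62.9 CPM under the WT label. The groups stood clear of each other, and the log2 fold change was 0.50 ± 0.07 (SE), 1.42-fold (edgeR adjusted p = 5.49e-05). Col6a2, which shares a trimer and a stretch of chromosome 10 with Col6a1, stood at 27.0, 26.2, 31.4 and 29.8 CPM under the C3 KO label, against 22.3, 16.3, 22.7 and 19.1 CPM under the WT label (log2 fold change 0.50 ± 0.10 (SE), edgeR adjusted p = 0.00136). In the Y-adjusted fit Col6a1 kept its call and Col6a2 lost it (edgeR adjusted p = 0.0791), at a log2 fold change of 0.48 ± 0.15 (SE). Col6a3, the third chain of the common type 6 trimer, stood at 2.29, 3.12, 4.06 and 2.73 CPM under the C3 KO label, against 2.77, 2.27, 3.51 and 3.08 CPM under the WT label, with the groups mixed (edgeR adjusted p = 0.88). Col6a4, a chain that can take the place of Col6a3, stood at 14.1, 11.6, 13.7 and 13.5 CPM under the C3 KO label, against 9.28, 7.92, 9.04 and 7.91 CPM under the WT label. The groups did not overlap (log2 fold change 0.63 ± 0.11 (SE), edgeR adjusted p = 0.000769). Its relatives Col6a5 and Col6a6 had log2 fold changes of 0.37 and 0.73 and did not pass.

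Of the 9 chains that sit on the surface of fibrils, 2 were higher and 1 lower. Col20a1, a fibril-associated chain whose role is little known, stood at 5.35, 6.14, 6.09 and 6.48 CPM under the C3 KO label, against 3.54, 3.14, 3.67 and 3.26 CPM under the WT label. The spread within either label was small, and the log2 fold change was 0.82 ± 0.16 (SE), 1.76-fold (edgeR adjusted p = 0.00132). In the Y-adjusted fit its log2 fold change was 0.78 ± 0.24 (SE, edgeR adjusted p = 0.0779). The type 9 chains, which decorate type 2 fibrils in vitreous and cartilage, did not all point one way. Col9a1 stood at 60.6, 56.4, 51.6 and 58.0 CPM under the C3 KO label, against 63.2, 67.9, 64.1 and 61.7 CPM under the WT label (log2 fold change −0.18 ± 0.06 (SE), edgeR adjusted p = 0.0484). Col9a3 stood at 50.9, 50.4, 49.5 and 53.2 CPM under the C3 KO label, against 39.6, 46.3, 44.4 and 47.1 CPM under the WT label (log2 fold change 0.20 ± 0.06 (SE), edgeR adjusted p = 0.037). Both sets of libraries were separate, by small margins. Col9a3 overlaps Tcfl5 on the opposite strand in the GRCm38 annotation. Strand use in counting is not stated by the sources at hand, so reads of the pair cannot be told apart. The same limit holds for Col18a1 with Slc19a1, Col4a1 with Col4a2 and Col10a1 with Nt5dc1. Col9a2, at 23.5, 26.8, 30.1 and 30.9 CPM under the C3 KO label, against 22.1, 26.7, 24.2 and 22.9 CPM under the WT label, overlapped and did not pass (edgeR adjusted p = 0.126).

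The calls of Col9a1 and Col9a3 were thin. Col9a1 kept its call only without C3 KO replicate 1 or WT replicate 4, and Col9a3 only without WT replicate 4, at edgeR adjusted p-values of up to 0.154 and 0.136 in the other leave-one-out fits. Both lost the call in the Y-adjusted fit, Col9a1 at −0.20 ± 0.09 on the log2 scale (SE, edgeR adjusted p = 0.258) and Col9a3 at a smaller 0.13 ± 0.10 (SE, edgeR adjusted p = 0.524).

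Of the 4 transmembrane collagens, 1 was lower and none higher. Col23a1, a transmembrane collagen of cell surfaces, stood at 48.6, 53.9, 50.2 and 50.9 CPM under the C3 KO label, against 55.0, 55.1, 59.6 and 65.0 CPM under the WT label (log2 fold change −0.21 ± 0.06 (SE), edgeR adjusted p = 0.033). It kept the call only without C3 KO replicate 2, WT replicate 1 or WT replicate 2, at edgeR adjusted p-values of up to 0.114 otherwise, and lost it in the Y-adjusted fit at −0.25 ± 0.10 on the log2 scale (SE, edgeR adjusted p = 0.146). Col17a1, a chain of hemidesmosomes, had a log2 fold change of −0.20 (edgeR adjusted p = 0.155), and Col25a1, a neuronal collagen, of 0.27 (edgeR adjusted p = 0.0836). Among the remaining chains Col7a1, which forms the anchoring fibrils under epithelia, stood at 3.56, 5.52, 4.91 and 5.74 CPM under the C3 KO label, against 2.56, 3.73, 3.30 and 3.62 CPM under the WT label. C3 KO replicate 1 lay within the WT range (log2 fold change 0.58 ± 0.19 (SE), edgeR adjusted p = 0.0425), and the call was kept only without that library, at edgeR adjusted p-values of up to 0.146 in the other 7 fits. In the Y-adjusted fit it was lost at 0.44 ± 0.29 on the log2 scale (SE, edgeR adjusted p = 0.454).

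To compare chains that assemble together, the log2 ratio of their CPM was taken in each library for 12 pairs and tested by a 2-sided exact permutation test over 70 splits, in which no p can be below 0.0286. The ratio did not overlap between the labels in 2 of the 12 pairs, and over all 903 pairs of collagen genes that share was 29.2%. After adjustment over the 12 pairs at least 7 of them would have to reach that smallest p for any to pass, so the adjusted values, 0.171 at the lowest, say little about a single pair. Col4a5 over Col4a4 had a mean log2 ratio of 1.72 ± 0.15 under the C3 KO label and 3.05 ± 0.64 under the WT label (SD, n = 4, exact permutation p = 0.0286, adjusted 0.171). Per kilobase this is a 4.08-fold excess of Col4a5 over Col4a4 under the C3 KO label and a 10.2-fold excess under the WT label. With Col4a5 at a log2 fold change of −0.07, this difference in ratio mostly restates that of Col4a4. Col5a1 over Col5a2 had a mean log2 ratio of 0.22 ± 0.18 under the C3 KO label and −0.34 ± 0.11 under the WT label (SD, n = 4, exact permutation p = 0.0286, adjusted 0.171).

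The log2 ratio of Col8a1 to Col8a2 was 2.23, 2.16, 2.15 and 2.14 in C3 KO replicates 1 to 4, against 1.59, 2.56, 2.10 and 1.74 in WT replicates 1 to 4. The C3 KO libraries lay inside the wider WT range, with a difference in means of 0.17 (exact permutation p = 0.343, adjusted 0.686). Col4a1 over Col4a2 was 0.54 ± 0.09 under the C3 KO label and 0.56 ± 0.08 under the WT label (SD, n = 4, exact permutation p = 0.743). Col6a1 over Col6a2 was 1.47 ± 0.03 under the C3 KO label and 1.48 ± 0.27 under the WT label (SD, n = 4, exact permutation p = 1.00). Col9a1 over Col9a2 was 1.03 ± 0.25 under the C3 KO label and 1.42 ± 0.07 under the WT label (SD, n = 4, exact permutation p = 0.0571), so the test did not separate the labels.

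**Figure D5:**
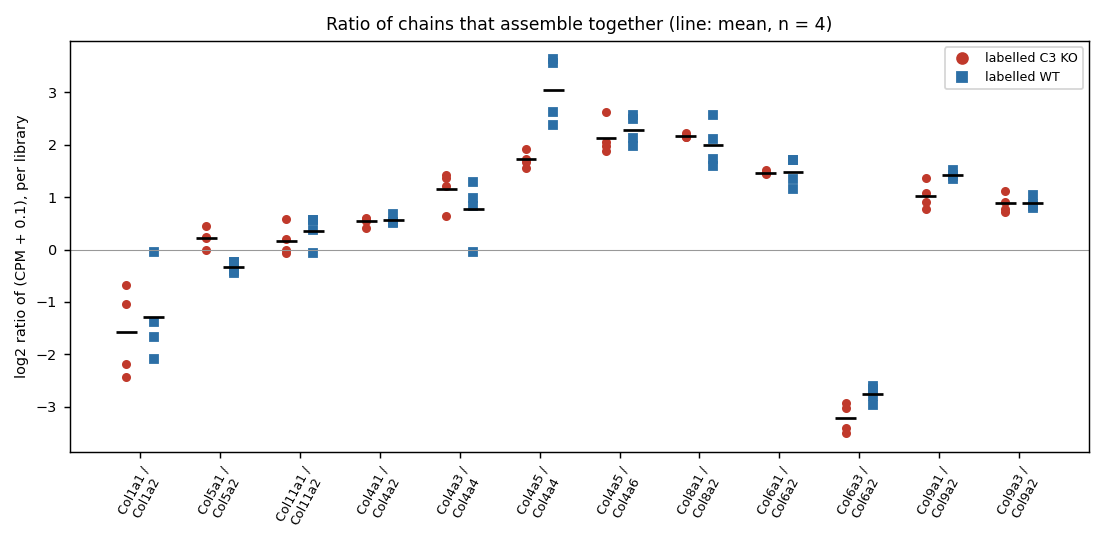
Log2 ratio of (CPM + 0.1) of 2 chains of one trimer in each library, for 12 pairs, with libraries labelled C3 KO as circles on the left, those labelled WT as squares on the right and the mean as a line. The groups stand clear of each other for Col5a1 over Col5a2 and for Col4a5 over Col4a4, with Col4a5 over Col4a4 at a mean of 1.72 under the C3 KO label and 3.05 under the WT label.

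Among 61 tested genes that build, cross-link, bind and break down collagens, 11 were called, or 18.0%, beside 14.3% of all genes tested. Of 19 enzymes and chaperones that modify and fold the chains, 2 were higher and 1 lower, at a median log2 fold change of 0.10. Leprel2, a prolyl 3-hydroxylase, averaged 55.1 ± 3.81 CPM under the C3 KO label and 43.3 ± 1.82 CPM under the WT label (SD, n = 4, edgeR adjusted p = 0.00078). P4ha3, a low-level subunit of the prolyl 4-hydroxylase, was 1.96-fold higher (edgeR adjusted p = 0.038), and P4ha1, the main such subunit, was lower at a log2 fold change of −0.27 (edgeR adjusted p = 0.0484). P4ha3 held in 3 and P4ha1 in 2 of 8 leave-one-out fits, at an edgeR adjusted p of up to 0.128 and 0.121.

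Of 13 genes that trim and cross-link procollagen, 2 were higher and none lower. They were Pxdn, the peroxidase that cross-links type 4 collagen, at 105 ± 7.57 CPM under the C3 KO label and 90.3 ± 3.23 CPM under the WT label (SD, n = 4, edgeR adjusted p = 0.0105, and 0.07 without C3 KO replicate 3), and Pcolce, an enhancer of propeptide removal, at a log2 fold change of 0.70 (edgeR adjusted p = 0.0459). Pcolce held in 1 of 8 leave-one-out fits, at an edgeR adjusted p of up to 0.147. Of 8 collagen receptors only Ddr1, a receptor tyrosine kinase for collagen, was called, lower, at 194 to 217 CPM under the C3 KO label against 230 to 269 CPM under the WT label (edgeR adjusted p = 0.00309). Of 8 tested genes of collagen breakdown, Timp3, a protease inhibitor held in the basement membrane of the pigment epithelium, was called, at 33.4 ± 3.01 CPM under the C3 KO label and 20.9 ± 1.34 CPM under the WT label (SD, n = 4, edgeR adjusted p = 1.12e-05). Of 13 collagen-binding matrix genes, 3 were higher and 1 lower. These were the nidogen Nid2 (1.41-fold higher, edgeR adjusted p = 0.00188), the small leucine-rich proteins Ogn (1.97-fold higher, edgeR adjusted p = 0.00831) and Fmod (2.08-fold higher, edgeR adjusted p = 0.0382), and Prelp, lower at a log2 fold change of −0.25 (edgeR adjusted p = 0.037). Fmod held in 2 and Prelp in 3 of 8 leave-one-out fits, at an edgeR adjusted p of up to 0.141 and 0.117. In the Y-adjusted fit Leprel2 and Timp3 kept their calls and the other 9 genes called in these lists lost theirs. Among those 9, the log2 fold changes of Ddr1 (−0.24), Prelp (−0.24), Fmod (1.10) and P4ha3 (1.48) were about as large as before or larger, with larger standard errors. Those of Pxdn (0.16), P4ha1 (−0.20), Nid2 (0.35), Pcolce (0.45) and Ogn (0.68) were smaller.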

How the data were processed

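Poly(A) RNA of 8 mouse retina samples, 4 per genotype label, was sequenced from directional libraries per the labels' protocols. Alignment and counting tools were STAR and HTSeq, with no version given, and the builds mm9 and NCBIM37, per the submitters' processing notes. The first deposited table holds raw read counts per gene, and each of its genes has at least 15 reads in at least 1 library. A further deposited table has log2 RPKM from the authors, whose pseudocount and gene lengths are not given in the sources used here. Columns were matched to samples by the label in the title.

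The counts went into edgeR 4.0.16 under R 4.3.3 (filterByExpr, TMM scaling, robust quasi-likelihood test of C3 KO over WT, Benjamini-Hochberg over all 15850 genes tested). Each SE is the log2 fold change divided by the square root of F. CPM are scaled by TMM, and RPKM, used to compare genes, are 2 to the power of the deposited log2 values. Alternatives used DESeq2 1.42.0, limma 3.58.1, other scalings and filters, the replicate number as a block, the mean log2 CPM of 4 Y-linked genes as a covariate, and each library left out. Start regions came from RefSeq (GRCm38.p6), matched by symbol. Because that build differs from the submitters', it served otherwise only for names, chromosomes and neighbours. In simulated counts for C3 KO over WT on 15767 genes, recovery was 54% at 1.25-fold, 74% at 1.5-fold, 88% at 2-fold and 100% at 4-fold, and 8 unchanged genes were called. The changed genes there excluded those with the lowest levels, and both labels had the same spread at a given level. Recovery for low-count genes, or for genes that vary more, was therefore not measured.

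The collagen genes, gene lists and chain pairs were chosen with earlier results of these data known. Genes given in every library are the 17 called, their trimer partners where a chain was called, and the 3 highest per kilobase in each class. Of the other lists, up to 4 genes with the smallest p are named, and Dcn, Lum and collagen genes given by log2 fold change alone, and Xist, were named outside that rule after their values were seen. Counts of replicates of one label differed by more than sampling noise in every pair (chi-square per degree of freedom at least 3.72).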

Additional observations from a re-analysis of the deposited data

Results flagged for a closer look

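Within each label, the highest and lowest of the 4 libraries were compared with the nearest other library for every collagen gene, chain ratio and listed gene with printed values. Of 140 such groups 4 held a library that stood apart, and chance gives about 1 in 20. The ratio of Col4a1 to Col4a2 was 0.68 on the log2 scale in the library labelled WT replicate 2, against 0.51 to 0.53 in the other libraries labelled WT. Ttr stood at 36.2 CPM in WT replicate 1, against 25.6 to 26.0 CPM in the others of that label. This library was also the highest of its label for Col8a1, Col8a2 and Col4a3. It was the highest, too, for the summed fibroblast and sclera, astrocyte and microglia genes. A link between these levels was not tested. Ddr1 stood at 269 CPM in WT replicate 4, against 230 to 233 CPM in the others, and Fmod at 0.422 CPM in WT replicate 4, against 0.851 to 0.923 CPM. No single collagen gene had a library that stood apart in this way.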

How the results depend on the processing

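Scaling by RLE or upper quartile, DESeq2, limma-voom, either count filter, non-robust dispersion and the replicate block each gave 15 to 17 called collagen genes, against 17 in the edgeR fit. With limma on log2(RPKM + 1) or log2(RPKM + 0.1), 11 collagen genes were called, 1 of them lower, and 1490 or 1479 genes in all. The Y-adjusted fit gave 8 called (7 higher, 1 lower) and 534 in all, or 18.6% of collagen genes and 3.37% of all genes tested. Leaving out 1 library gave 13 to 17 called collagen genes, 12 to 15 higher and 1 to 2 lower, and 1305 to 2543 genes in all; the lowest count in all came without C3 KO replicate 4, and a single lower gene remained without C3 KO replicate 3 or 4. The cause of these changes was not tested. The replicate numbers do not pair the libraries: deviations of same-numbered libraries correlated at −0.0597 to 0.0885 and only replicate 2 matched its own number best, and with the replicate block 16 collagen genes and 2400 genes were called. Ratios that did not overlap numbered 2 to 4 when 1 library was left out, the most without WT replicate 2. Among 759 gene values under an alternative, 643 kept direction and side of the threshold, 102 lost the call, 1 gained it and 13 changed sign, all of genes not called. In the Y-adjusted fit the log2 fold changes of Col4a5 (0.068), Col6a3 (−0.108), Col4a1 (−0.035), Col4a2 (−0.015) and Col5a3 (0.063) changed sign. With 1 library left out they ran from −0.153 to 0.017 for Col4a5, −0.106 to 0.180 for Col6a3, −0.026 to 0.097 for Col4a1, −0.0064 to 0.128 for Col4a2 and −0.195 to 0.020 for Col5a3. Depth limits the chains with few reads, fewest for Col13a1 with 100 over 8 libraries and 1 in the library with the fewest.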
